A study of Mus musculus with 2 samples.

Results

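Small nucleolar RNAs (snoRNAs) and small Cajal body RNAs (scaRNAs) detected in the hippocampus of old mice are described here. They were selected on measured levels, as genes whose transcript is typed snoRNA or scaRNA in the annotation and whose deposited gene-level TPM (a count divided by effective length and scaled to the same total in each library) was at least 1 in both libraries. This gave 103 genes, 87 typed snoRNA and 16 typed scaRNA, of 1558 genes of these types and of 55536 annotated genes. Since measured levels chose them, the levels are a description and are not tested.

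The study sequenced total RNA of the hippocampus (the layer of hippocampus in the labels' words) from male B6CASTF1/J mice, the F1 cross of C57BL/6J and CAST/EiJ, at 18 to 20 months of age. There was 1 group of 2 libraries, called replicate 1 and replicate 2, each made from 300 ng of RNA with ERCC spike-in RNA for stranded libraries with reduced ribosomal RNA. The labels name no treatment and no transgene, list both replicates under a single donor record, and do not say whether they are separate animals, so the spread between them may be partly technical. Expected counts over genes summed to 34563482 in replicate 1 and 32370292 in replicate 2. The neuronal, astrocyte, oligodendrocyte and microglial markers all reached 1 TPM in each of the libraries. The 7 choroid plexus markers summed to 36.8 TPM in replicate 1 and 698.7 TPM in replicate 2, and all 7 were higher in replicate 2, led by Ttr at 29.9 and 672.4 TPM. Bulk tissue gives 1 value for all its cells, so a smaller number of cells of a type and less RNA per cell cannot be told apart.

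SnoRNAs work in the nucleolus as part of small protein-RNA particles. RNAs of the C/D class, named for their C and D boxes, pair with ribosomal RNA and direct the methylase fibrillarin to the paired base, and RNAs of the H/ACA class direct the enzyme dyskerin to change a uridine to pseudouridine. A few, among them U3, U8, U14, U17 and U22, are needed for the cleavage and folding of the ribosomal RNA precursor, and scaRNAs carry the same boxes but guide the modification of spliceosomal RNAs in Cajal bodies. In mammals most are cut from introns of host genes during the host's own expression, while U3 and U8 are transcribed from promoters of their own.

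The sequences of 10 of these RNAs show the range covered by the results: 2 pairs of relatives from shared host genes, 1 pair from a shared host with unlike boxes, 2 forms of U3, a scaRNA with an ACA end, and a Snord116 copy that the gene table could not measure. Capitals mark an ACA that ends 3 bases before the 3′ end, the H/ACA signature, or a C box (TGATGA within the first 30 bases) with a D box (CTGA within the last 20 bases), searched on the RNA strand only. Sequences are those of the GENCODE M21 transcripts of mm10, written 5′ to 3′ as DNA letters.
Snora73b (chr4:132352322-132352526, minus strand): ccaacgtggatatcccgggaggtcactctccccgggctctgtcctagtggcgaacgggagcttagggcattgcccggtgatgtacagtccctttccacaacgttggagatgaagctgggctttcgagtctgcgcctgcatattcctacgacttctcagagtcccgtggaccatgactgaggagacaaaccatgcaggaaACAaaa
Snora73a (chr4:132352775-132352979, minus strand): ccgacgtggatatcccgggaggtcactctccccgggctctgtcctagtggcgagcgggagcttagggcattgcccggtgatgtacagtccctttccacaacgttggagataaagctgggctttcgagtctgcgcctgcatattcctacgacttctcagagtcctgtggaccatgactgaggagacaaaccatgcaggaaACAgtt
Snord15b (chr7:99479563-99479707, minus strand): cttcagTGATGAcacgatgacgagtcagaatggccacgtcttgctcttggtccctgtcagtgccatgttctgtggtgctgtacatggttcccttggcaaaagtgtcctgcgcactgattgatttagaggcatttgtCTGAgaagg
Snord15a (chr7:99482785-99482932, minus strand): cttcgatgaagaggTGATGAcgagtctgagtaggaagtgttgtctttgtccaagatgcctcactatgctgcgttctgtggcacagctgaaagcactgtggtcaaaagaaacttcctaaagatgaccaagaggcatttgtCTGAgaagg
Gm22988 (chr11:69669635-69669778, minus strand): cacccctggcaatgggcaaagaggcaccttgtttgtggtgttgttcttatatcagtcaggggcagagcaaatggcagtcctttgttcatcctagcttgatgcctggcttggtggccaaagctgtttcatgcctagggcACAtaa
Gm25835 (chr11:69668852-69668995, minus strand): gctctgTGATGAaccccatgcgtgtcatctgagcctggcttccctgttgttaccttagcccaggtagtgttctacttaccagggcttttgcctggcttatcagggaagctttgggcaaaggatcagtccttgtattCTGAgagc
Rnu3b1 (chr11:87443237-87443451, plus strand): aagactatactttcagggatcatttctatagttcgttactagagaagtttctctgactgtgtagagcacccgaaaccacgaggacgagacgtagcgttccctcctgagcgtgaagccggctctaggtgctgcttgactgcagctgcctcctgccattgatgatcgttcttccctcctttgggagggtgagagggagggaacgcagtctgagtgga
Rnu3a (chr10:40258467-40258680, plus strand): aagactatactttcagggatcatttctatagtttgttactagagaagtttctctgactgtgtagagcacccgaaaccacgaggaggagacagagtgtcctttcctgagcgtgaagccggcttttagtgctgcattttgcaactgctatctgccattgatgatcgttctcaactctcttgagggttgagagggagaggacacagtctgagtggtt
Scarna13 (chr12:105031075-105031349, minus strand): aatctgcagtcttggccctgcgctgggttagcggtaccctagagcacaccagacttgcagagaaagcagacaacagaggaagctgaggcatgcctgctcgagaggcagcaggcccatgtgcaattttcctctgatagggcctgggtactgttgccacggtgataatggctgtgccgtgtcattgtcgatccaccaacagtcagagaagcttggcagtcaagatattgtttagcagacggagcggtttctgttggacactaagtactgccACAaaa
Snord116l17 (chr7:59861731-59861824, minus strand): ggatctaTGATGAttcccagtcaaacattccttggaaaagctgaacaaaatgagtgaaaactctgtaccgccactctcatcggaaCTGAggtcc

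Snora73a and Snora73b matched at 198 of 205 aligned positions (96.6%), whereas Snord15a and Snord15b matched at 65.6% of 154 aligned columns. Rnu3a and Rnu3b1 matched at 85.2%. Gm22988 ends in the H/ACA signature and Gm25835 carries both C/D boxes, although both lie in Eif4a1, and they matched at 50.6%.

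Over all 103 genes, 53 (51.5%) had the ACA end, against 229 (23.1%) of the 993 genes of these types that could be measured and were not chosen and 19.3% of all 1558. The C and D boxes together were found in 11 (10.7%), against 8 (0.806%) of those 993 and 20.3% of all 1558, and 39 had neither pattern. Among the 20 chosen genes with Snora names, which mark the H/ACA class, 16 had the ACA end and none had C/D boxes. Of the 15 with Snord or Rnu3 names, which mark the C/D class, only 4 had the C/D boxes and none had the ACA end. Of the 6 with Scarna names, 1 had the ACA end and 2 had the C/D boxes. Of the 62 genes without a class in their name, nearly all Gm symbols, 36 had the ACA end and 5 had the C/D boxes. GC content had a median of 51.4% in the chosen genes and 46.6% in the measurable others. These shares describe the letters only, and no match in these windows says nothing about the class of an RNA.

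Length set what could be counted at all. In the gene table the effective length, the number of positions a fragment can start from, equalled the annotated length minus 99 bases for each of the 1558 genes, so a gene needs at least 100 bases to have any. It was 0 for 462 genes (29.7%), and all 462 had 0 counts in both libraries. This took out 87 of the 98 Snord genes, whose names mark the C/D class, but none of the 42 Snora genes. C and D boxes were present in 298 (64.5%) of those 462 genes. All 17 Snord116 copies, C/D RNAs of the imprinted Prader-Willi region that are known for their neuronal expression, are annotated at 94 bases and fall here. So do Snord64 and Snord107 of the same region, the 4 Snord14 genes (U14), Scarna9 and Scarna17. Their TPM of 0 therefore carries no information on their RNA. Snord13 (U13) is 104 bases long with an effective length of 5 and had 0 counts. This allows up to 0.0868 CPM (counts scaled to the library total) in replicate 1 and 0.0927 in replicate 2 for counting error only. These limits are not corrected for length. At an effective length of 10, 2 counts of Gm24610 came to 7.97 TPM in replicate 1. The 0 of Snord13 therefore says little about its level in TPM. No gene row carried the names Snora63, Snord115, Snord113 or Snord114.

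**Figure D1:**
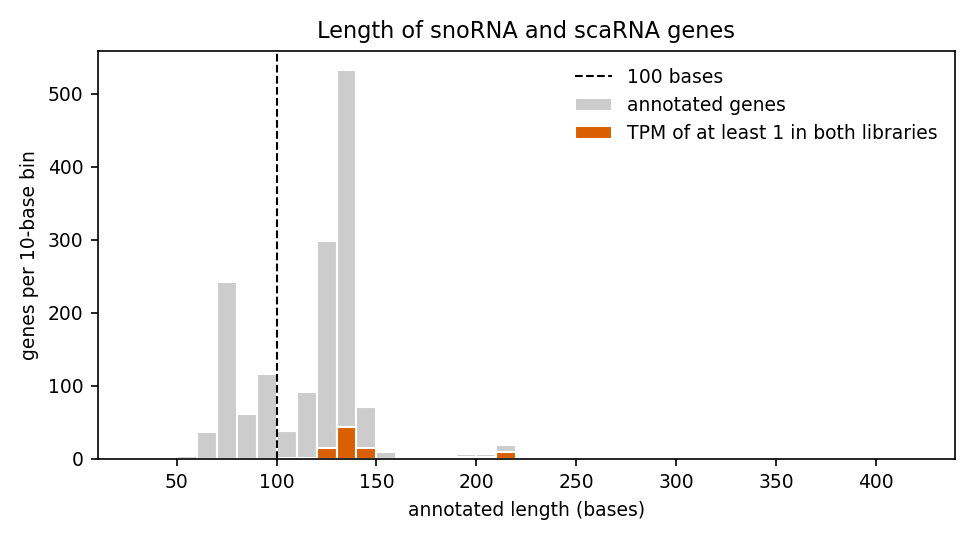
Number of snoRNA and scaRNA genes per 10-base bin of annotated length, all 1558 in grey and the 103 that reached 1 TPM in each library in orange. The dashed line at 100 bases is the shortest length with an effective length above 0, and no chosen gene lies to its left.

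Of the 1096 genes long enough to be counted, 931 were at 0 in both libraries, 103 were chosen, 13 were under 1 TPM in both without being at 0 in both, and 49 reached 1 TPM in 1 library only. Of those 49, 28 reached it in replicate 1 and 21 in replicate 2, and 43 had under 3 counts in either library. The chosen genes were 109 to 414 bases long with a median of 136, and the median effective length was 37 bases against 2268 over all 14287 genes at a TPM of at least 1. A single count was therefore worth 1.08 TPM in replicate 1 and 1.17 TPM in replicate 2 for the median chosen gene, against 0.0176 and 0.0190 TPM for the median expressed gene. Near the limit a count decides membership: Gm23546 and Gm23751 entered with 1 count in each library, at 1.05 and 1.14 TPM and at 1.08 and 1.17 TPM, and Gm23346 with 1 and 2 counts at 1.08 and 2.34 TPM. Snora62 stayed out at 1.59 and 0.87 TPM from 2 counts and 1 count, Snora70 at 0.93 and 8.59 TPM, and Gm22865 at 0.35 and 0.75 TPM. In all, 17 chosen genes had under 3 counts in either library and 37 had under 10, while 58 had at least 10 and 27 at least 100 in both.

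The chosen RNAs together held 0.922% and 0.859% of the summed gene TPM, but 0.0731% (95% exact binomial interval 0.0722 to 0.0740) and 0.0689% (0.0680 to 0.0698) of expected counts. Their median TPM was 23.0 and 20.1, beside 12.9 and 13.2 over all expressed genes. By mean TPM, 22 were at 100 or more, 42 between 10 and 100, and 39 between 1 and 10. The top 5 held 38.7% and 40.4% of the summed TPM, and Scarna2 and Scarna10 alone held 34.7% and 37.3% of the counts. Over the 103 genes the log2 TPM of the 2 libraries had a Pearson correlation of 0.97 across genes, which are not independent replicates. The selection had already left out the 49 genes that reached 1 TPM in 1 library only, and the Rnu3b copies enter with identical values. The correlation therefore does not measure how well the libraries agree for genes of these types.

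**Figure D2:**
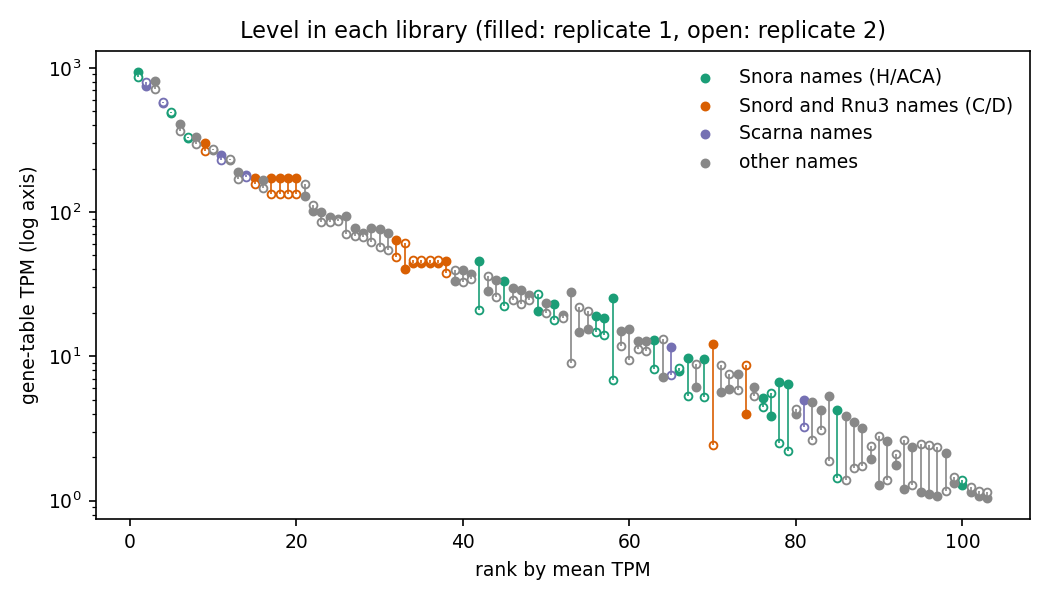
Deposited TPM of the 103 genes on a log axis, ranked by their mean, with replicate 1 filled, replicate 2 open and a line joining them. Values run from 935 TPM for Snora74a in replicate 1 down to about 1, and the gap between the libraries is wider among the low-ranked genes, many of which rest on under 10 counts.

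RNAs needed for ribosomal RNA processing were present at very different levels. U17, which takes part in the early cleavage of the precursor of small-subunit ribosomal RNA, is made from Snora73a and Snora73b. Snora73b was at 483.8 TPM in replicate 1 and at 495.8 in the other (1287 and 1212 counts). Snora73a was at 325.8 and 330.2 TPM (867 and 807 counts). Both copies were alike in the 2 libraries, and Snora73b exceeded Snora73a 1.48-fold (95% counting interval 1.36 to 1.62) in replicate 1 and 1.5-fold (1.37 to 1.64) in replicate 2. Since they differ at few positions, the division of reads between them rests on the model behind the expected counts, whose posterior SD was 7.11 counts for Snora73b and 7.57 for Snora73a in replicate 1.

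U3, the most abundant C/D RNA in many cells and a part of the early small-subunit complex, was spread over 10 gene rows of 213 to 216 bases, 9 of which were chosen. Rnu3b1, Rnu3b2, Rnu3b3 and Rnu3b4 are each annotated at 215 and again at 216 bases from the same start, and the 4 copies of each length have identical sequence and identical values. Each 215-base row was at 172.4 TPM in replicate 1 and 134.0 in replicate 2, and each 216-base row at 44.1 and 46.7. The posterior SD of the 215-base rows was 274 to 359 counts in replicate 1 beside 502 counts each, so the rows cannot be read singly. Rnu3a was split in replicate 1 between a row of 214 bases at 40.1 TPM and a row of 213 bases at 43.4 TPM, but in replicate 2 the former held 61.5 TPM and the latter 0. Summed over the 10 rows, U3 was at 949 TPM from 2765 counts in replicate 1 and 784 TPM from 2101 counts in replicate 2. The sum was 0.80 times as high in replicate 2 (95% counting interval 0.756 to 0.847, after scaling of the libraries). As a sum over rows, U3 was about as high as the top single gene.

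U8 (Snord118), needed for large-subunit ribosomal RNA, was low, at 12.2 TPM from 11 counts in replicate 1 and 2.41 TPM from 2 counts in replicate 2. U22 (Snord22), needed for the small-subunit RNA, was at 63.5 and 48.8 TPM from 43.0 and 30.4 counts. U8 therefore rests on few counts, and its libraries differ by more than those of U17 or U22.

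The remaining Snord genes, C/D methylation guides or RNAs of that class, were few because of length. Snord15b was at 302.5 TPM in replicate 1 and 263.4 in replicate 2, and Snord15a at 45.5 and 38.1. Snord17 was at 173.4 and 155.3 TPM. Snord23 was the lowest C/D gene by mean TPM, at 3.98 and 8.67 TPM from 1 and 2 counts, and U8 was lower in replicate 2. The median over the 15 C/D-named rows was 45.5 and 48.8 TPM, and 9 of the 15 are U3 rows.

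Among the 20 Snora genes, the H/ACA class, Snora74a (U19), on chromosome 18, was highest of all 103 at 934.5 TPM in replicate 1 and at 869.6 in the other, from 2275 and 1946 counts. After it and the U17 pair the levels drop: the next by mean TPM were Snora68 at 45.7 and 20.8 TPM and Snora23 at 33.3 and 22.4 TPM. Snora64 was at 7.92 and 8.35 TPM, and Snora30 was lowest at 1.29 and 1.40 TPM from 1 count in each. The median over the 20 Snora-named genes was 15.8 TPM in replicate 1 and 8.24 TPM in replicate 2. The log2 ratio of the H/ACA to the C/D median was −2.05 ± 0.73 (SD, n = 2), but −1.0 over genes with at least 10 counts in both libraries. Since the C/D class was seen only through its longest RNAs, this compares the measured genes and not the classes.

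Of the genes with Scarna names, 6 of 9 were chosen, with a median of 213.9 and 201.7 TPM. This median is by name and not by annotated type. Scarna10 is typed snoRNA, and other genes typed scaRNA, such as Gm25395, Gm22009 and Gm22767, carry Gm names and are not in it. Scarna10, a mixed C/D and H/ACA guide for the U5 spliceosomal RNA, was at 749.4 TPM in replicate 1 and 792.5 in replicate 2, from 4250 and 4131 counts. Scarna2, a C/D guide for U2, was at 570.8 and 576.4 TPM from 4512 and 4188 counts, the most counts of any of the 103. Scarna13 (U93), of the H/ACA class, was at 248.6 and 228.8 TPM, and Scarna6 at 179.3 and 174.5. Scarna3a, at 11.7 and 7.40 TPM, and Scarna3b, the lowest at 4.98 and 3.25 TPM, stood well below. Levels of these 4 high genes are close in both libraries, and the difference between them is larger than that between the libraries.

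The 62 genes without a class in their name spanned 1.10 to 757.9 TPM by mean. Some of them, such as Gm25395 and Gm22009, are typed scaRNA. Gm22988 was at 807.9 TPM in replicate 1 and 707.8 in replicate 2. Gm26447 was at 408.4 and 366.3 TPM, Gm22486, which has C/D boxes, at 329.3 and 297.8, and Gm25395, also with C/D boxes, at 269.9 and 272.7. Gm22009, the longest of them at 343 bases, was at 166.7 and 146.4 TPM. Their median was 15.3 and 12.4 TPM, beside 15.8 and 8.24 for the Snora genes.

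Nearly all of the chosen RNAs lie inside another gene. A gene on the same strand that is no small RNA gene spans 95 of the 103 (92.2%), against 220 (22.2%) of the 993 measurable genes not chosen. There were 78 such hosts, 66 of them protein-coding. By the exons of the host's transcripts, 68 RNAs are intronic, 17 lie inside an exon of some transcript, and 10 overlap one. Hosts include 8 ribosomal protein genes with 9 RNAs, the translation initiation factor genes Eif4a1, Eif4a2 and Eif4g2 with 5, and Snhg genes, noncoding snoRNA hosts for the most part, with 11. Scarna2, Rnu3a, Snord118, Snora17, Snora43 and Snora57 are among the 8 without a host. The 8 Rnu3b rows lie in an intron of Tex14, which was itself at 0.09 and 0.16 TPM.

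The levels of the RNAs were set beside those of their hosts. Over the 87 RNAs with a host other than the Rnu3b rows, Spearman's rho between the mean TPM of RNA and host was 0.09. It is given as a description, since RNA and host share libraries and, where they overlap, reads. Whether reads counted for an intronic RNA came from the unspliced host was not tested. Among these 87 the RNA stood above the host in 34 cases and below in 53, with a median log2 ratio of −1.0. With the 8 Rnu3b rows, all far above Tex14, it stood above in 42 of 95, with a median of −0.71. The median depends on the low genes: without the Rnu3b rows it was 1.10 over the 47 with at least 10 counts in both libraries, 31 of them above the host, and with those rows 1.82 over 55, of which 39 were above. Over the 40 others it was −2.61, with 3 above. The 9 RNAs in ribosomal protein genes had a median of 16.2 TPM inside hosts with a median of 128.1 TPM, and 1 of them, Snord15b in Rps3, was above its host. The 11 in Snhg genes had a median of 23.8 TPM against 9.76 TPM for the host, and 7 were above. In Snhg3, at 9.91 and 9.61 TPM, Snora73b was 50.2-fold above its host and Snora73a 33.6-fold. Snord22 was 5.64-fold above Snhg1.

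**Figure D3:**
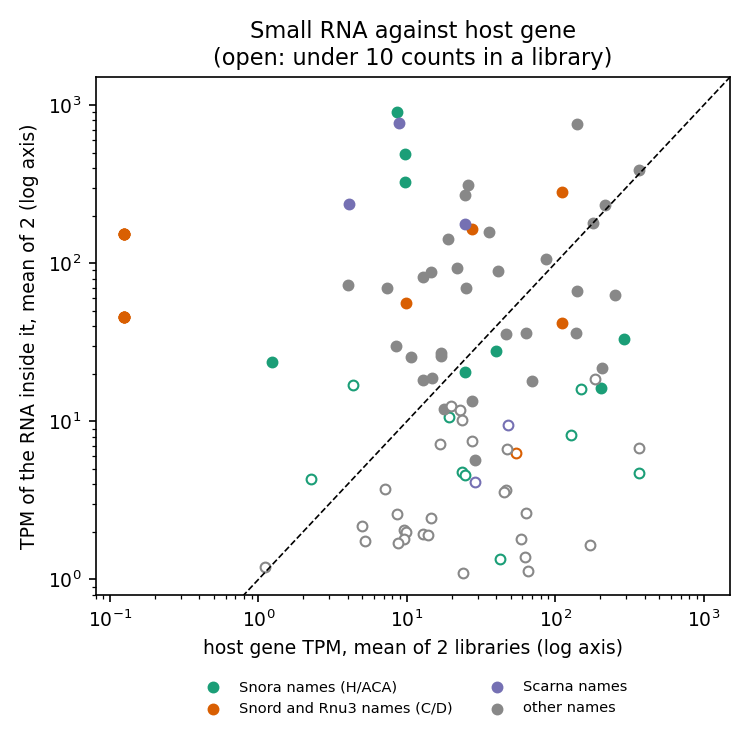
Mean TPM of 95 small RNAs against the mean TPM of the gene that spans them, both on log axes, with open points for RNAs with under 10 counts in a library and a dashed line of equal levels. The points scatter over the plot with no shared trend, 42 above the line and 53 below it, and the Rnu3b rows stand at the far left over Tex14.

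RNAs that share a host were compared next. In 10 hosts exactly 2 of the chosen RNAs were found, and in 7 of these pairs they differed by more than 2-fold in both libraries. The share of pairs from different hosts that differ as much was not computed, and the chosen RNAs span a wide range of levels. Whether RNAs that share a host are more or less alike than other pairs was therefore not tested. For 2 of the 7 the interval reached below 2-fold: Snora44 over Snora61 in Snhg12 at 3.49-fold (95% counting interval 1.24 to 12.2) and 7.18-fold (1.38 to 57.0), and Gm25791 over Gm22620 in Taf1d at 8.32-fold (1.44 to 56.8) and 10.4-fold (2.05 to 75.3). Both rest on few counts of the lower RNA. So does the widest pair, in AC121821.1, where Snora74a exceeded Mir1949 265-fold (96.0 to 905) and 518-fold (116 to 3481). Mir1949, a chosen gene with a microRNA name, had 3.71 and 1.63 counts. In Eif4a1, which encodes a translation initiation helicase, Gm22988 exceeded Gm25835 10.6-fold (95% counting interval 8.49 to 13.4) in replicate 1 and 12.5-fold (9.55 to 16.5) in replicate 2. Gm25835 itself was at 76.2 and 56.8 TPM. In its relative Eif4a2, Gm26447 exceeded Gm24616, at 5.98 and 7.59 TPM, 68.3-fold (31.1 to 188) and 48.3-fold (23.1 to 122). Snord15b exceeded Snord15a in Rps3 6.64-fold (4.99 to 8.97) and 6.92-fold (5.0 to 9.76), and Snord17 exceeded Gm26165 in Snx5 28.3-fold (12.9 to 77.4) and 17.5-fold (8.80 to 40.7). The pair in Atg16l1, Gm25395 over Scarna6, differed 1.51-fold and 1.56-fold, and that in Pabpc4, Gm25788 over Gm22154, 1.04-fold (0.564 to 1.93) and 1.06-fold (0.515 to 2.19). Each of the named pairs keeps its order in both libraries, and the intervals of the Pabpc4 pair include equality.

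The second deposited quantification, an est_counts table per transcript, gave a different picture of nearly every one of these RNAs. Of the 103, 100 had 0 est_counts in both libraries, beside 2.77% of all genes at a gene-table TPM of at least 1. Only Scarna2 reached 1 TPM in both, beside 96.4% of those genes. It had 1378 and 1249 est_counts against 4512 and 4188 expected counts, or 30.5% and 29.8%, and 638.3 and 642.0 TPM against 570.8 and 576.4. Gm22009 had 19 est_counts in replicate 1 and 1 in replicate 2, and Scarna10, with 4250 and 4131 expected counts, had 1 and 0. The 103 genes came to 0.00401% and 0.00385% of est_counts. With 0.1 TPM added to both values, the median log2 ratio of the est_counts table to the gene table was −7.61 and −7.50 over the 103 genes and 0.69 and 0.68 over all expressed genes. As the ratio of a 0 depends on the value added, it stands for absence from the second table and not for a fold.

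Short genes of other types were at 0 in the second table as well. In that table the length of transcripts over 3000 bases exceeded their effective length by a median of 339 bases in replicate 1 and 345 in replicate 2. Of the 131 single-transcript genes under 300 bases with at least 10 expected counts in both libraries, whatever their type, 98.5% had 0 est_counts in both, and 74 of the 76 that are not among the chosen RNAs did. Summed est_counts were 0.158% and 0.0363% of summed expected counts from 300 to under 350 bases and 21.7% and 19.7% from 400 to under 500. They were 78.5% and 77.3% from 500 to under 1000, and 107% and 106% from 1000 bases. In such shares of sums the most counted genes weigh most. By gene, 11 of 40 (27.5%) from 300 to under 350 bases had est_counts above 0 in both libraries. It was 44.7% of genes from 350 to under 400 bases and 62.6% from 400 to under 500. Scarna2, with 414 bases the longest of the 103, was the only one in the class from 400 to under 500 bases. These class sums and shares include the chosen RNAs themselves, so the place of Scarna2 there is no separate support. Sums without the chosen RNAs were not computed.

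**Figure D4:**
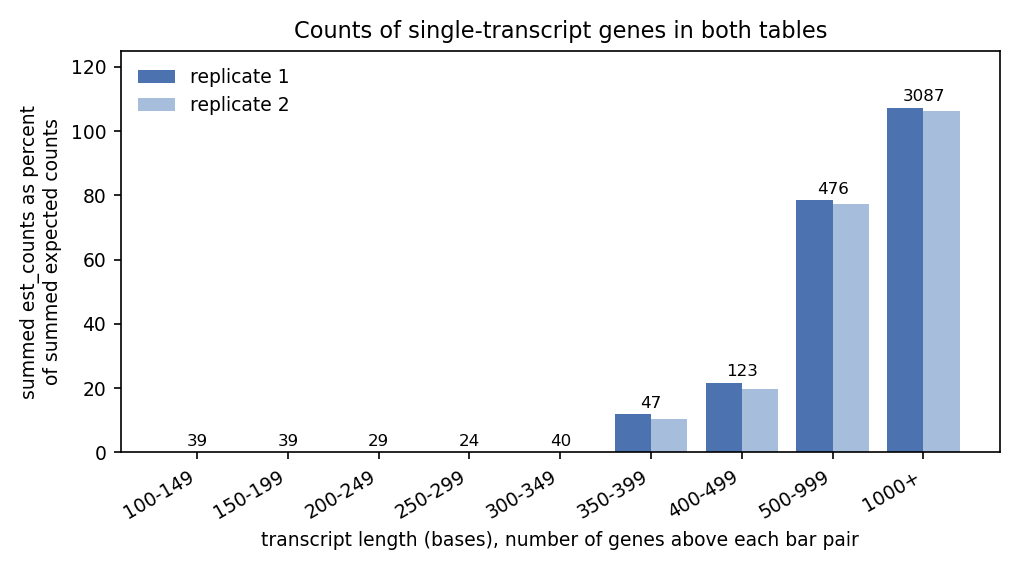
Summed est_counts of the second table as a percent of the summed expected counts of the gene table, for single-transcript genes with at least 10 expected counts in both libraries, by transcript length and library, with the number of genes above each pair of bars. The bars are at or near 0 below 350 bases and pass 100% from 1000 bases. They are shares of sums, in which the most counted genes weigh most, and not shares of genes. The chosen RNAs are included.

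Where an RNA lies inside an exon of a longer annotated transcript, the second table held counts on that transcript in both libraries for 25 of 28 pairs of an RNA and a transcript around it. The exceptions were a transcript each around Snora44, Snora61 and Snora26. The share of other transcripts with counts in both libraries was not computed, so the 25 of 28 have no background beside them. The 708-base retained-intron transcript of AC121821.1 that contains Snora74a had 2652 est_counts in replicate 1 and 2187 in replicate 2. The gene table gave the host gene 260 and 176 counts and Snora74a 2275 and 1946. The host was at 9.83 and 7.37 TPM in the gene table and at 398.98 and 363.3 TPM in the second. In Snhg20, transcripts that contain Gm26083 had 341 and 281 est_counts, and the host went from 13.2 and 15.9 TPM to 115.7 and 112.1. In Eif4a1, a 3167-base retained-intron transcript that contains Gm22988 had 2072 and 1643 est_counts, 31.2% and 27.1% of the host's. Of the 14 hosts with an RNA inside an exon, 6 (42.9%) were over 2-fold higher in the second table in both libraries. This was so for 8 of 56 (14.3%) with an intronic RNA and none inside an exon. It was so for 2 of 8 (25%) whose RNAs only overlap an exon, and for 11.1% of all expressed genes. Snhg3, which holds an intronic RNA and an RNA that overlaps an exon, was counted among the 56. These counts of few hosts were not tested, and reads were not followed from one table to the other.

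The libraries were then compared over the 43 chosen RNAs whose mean CPM reached 1. The ratio of replicate 2 to replicate 1 was taken on counts scaled by TMM, a normalization that assumes most genes are alike, with 0.5 counts added. None of the 43 differed 2-fold, beside 0.517% of all 14887 genes at that level. The 43 were lower in replicate 2 in 35 cases, beside 49.1% of all genes and 56.4% of single-transcript genes under 500 bases. The median log2 ratio was −0.20, beside 0.00 over all genes and −0.01 over 184 short genes that are not among them, and the ratio of the summed counts of all 103 was 0.930 (95% counting interval 0.913 to 0.947). The interval left out equality for 14 of the 43, 13 of them lower in replicate 2, beside 18.4% of all genes. Without the U3 rows, which cannot be read singly, 31 of 34 were lower, and the interval left out equality for 9 (26.5%), all lower. With 2 libraries of 1 group no test applies, and both the choroid plexus markers and these RNAs differed between the libraries; their part in the result was not tested.

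Sizes varied along the range of counts. Without the U3 rows, all 7 genes at a mean of 1 to 2 CPM were lower in replicate 2, with a median log2 ratio of −0.33, beside 60.3% and −0.09 for all genes of that range. At 2 to 4 CPM 7 of 9 were lower, with a median of −0.28, beside 55.1% and −0.03. At 4 to 8 CPM all 3 were lower, with a smaller median of −0.08, beside 55.2% and −0.03. At 8 to 16 CPM all 4 were lower, with a median of −0.20, beside 53.0% and −0.01. At 16 to 32 CPM all 6 were lower, with a median of −0.19, beside 49.9% and 0.00. At 32 to 64 CPM all 3 were lower, with a median of only −0.03, beside 45.6% and 0.01. Scarna10 and Scarna2, the best counted, had log2 ratios of 0.03 and −0.03, within the counting error. Snora74a was at −0.15, a ratio of 0.901 (0.848 to 0.957). With a mean of at least 10 counts, 3 of 60 genes differed 2-fold, beside 2.02% of all genes at that limit. The 3 were among the 31 with a mean of 10 to under 100 counts, a range in which 6.29% of all genes differed 2-fold. At a mean CPM of 0.1 or more, 6 of 79 differed 2-fold, beside 5.69% of all genes, and with no minimum 9 of 103, beside 20.3% of genes with any count. The 3 at 10 counts or more were Snora21, at 24 and 6 counts and 3.798-fold higher in replicate 1 (95% counting interval 1.51 to 11.4), Gm25129, at 24 and 7 counts and 3.26-fold higher (1.36 to 8.95), and Snora68, at 36.7 and 15.4 counts and 2.27-fold higher (1.25 to 4.59). Snora23 (log2 ratio −0.61) and Gm25835 (−0.47) followed. In the other direction Rnu3a stood first with a log2 ratio of 0.57, but this is the row of 214 bases alone: its 2 rows summed were lower in replicate 2, with a log2 ratio of −0.48 (ratio 0.715, 0.583 to 0.876). It was followed by Gm25791 (0.51), Gm23245 (0.34), Snora78 (0.33) and Gm23119 (0.30). The intervals of those last 4 include equality.

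**Figure D5:**
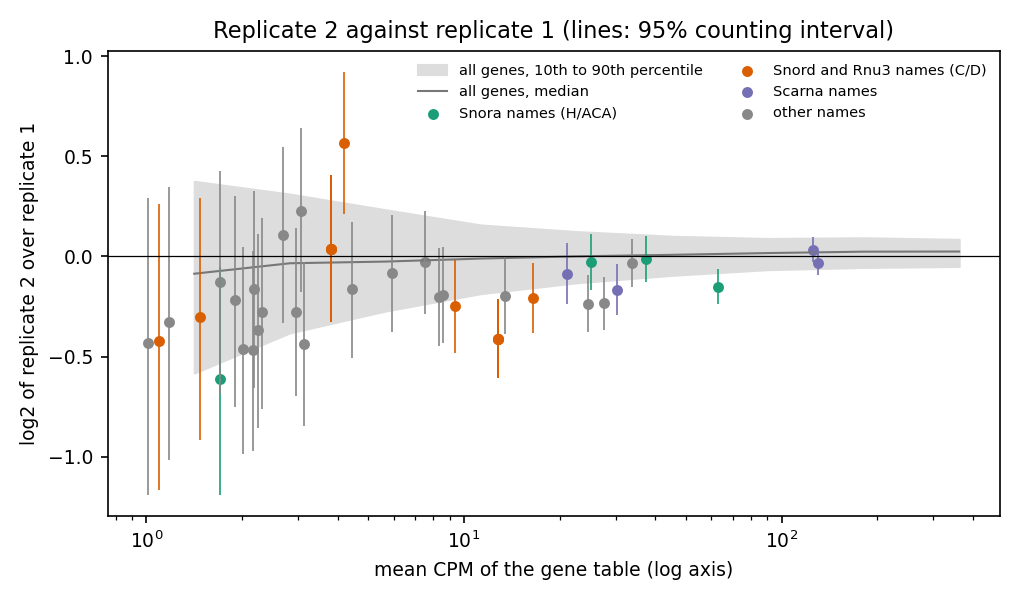
Log2 ratio of replicate 2 to replicate 1 against mean CPM on a log axis for the same 43 RNAs, with 95% counting intervals, over the median and the 10th to 90th percentile of all genes. Of the points, 35 lie below 0, and those of Scarna2 and Scarna10 at the right lie near 0.

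The genes for proteins that work with these RNAs were expressed at moderate levels. Of 28 listed gene symbols for core proteins, assembly factors and Cajal body proteins, 26 were found and 25 reached 1 TPM in each library. The genes found had a median TPM of 14.04 and 15.05 by replicate. The assembly gene Pih1d2 was just under that limit, at 0.91 and 0.97 TPM from 24 and 22 counts. Of the C/D core, Nop56 was at 60.2 and 58.0 TPM, Snu13 at 46.2 and 51.9, Nop58 at 22.5 and 21.7, and Fbl, the methylase fibrillarin, at 18.3 and 19.01. Of the H/ACA core, Nop10 was at 20.7 and 20.7 TPM, Gar1 at 17.2 and 18.8, Nhp2 at 16.4 and 21.7, and Dkc1, the pseudouridine synthase dyskerin, at 15.1 and 15.2. The summed TPM of the C/D core was 147.2 and 150.6, and that of the H/ACA core 69.3 and 76.4. Assembly genes lay between 0.91 and 22.6 TPM, with Nolc1, a nucleolar chaperone, highest. Coil, the scaffold of Cajal bodies, was at 8.07 and 8.04 TPM, and Wrap53, which brings scaRNAs there, at 5.84 and 5.31. None of the 26 differed 2-fold between the libraries, and no core gene was absent in either.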

How the data were processed

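Total RNA of 2 hippocampus libraries was analysed, grouped by tissue, sex, strain and age as labelled. The assembly is mm10 and the annotation GENCODE M21, per the deposited notes; the tools and their versions were not given in the sources used here. The authors deposited a gene table with expected counts and TPM in the layout of RSEM, and a transcript table with estimated counts (est_counts) and TPM in that of kallisto, per the file headers. The posterior SD of each count, a score of its uncertainty, was also deposited. Whether counting used strand is not stated, so RNAs overlapped by a gene on the opposite strand are uncertain. Reads of near-identical copies are divided by a model.

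Rows were joined by gene identifier, and est_counts TPM was summed per gene. ERCC rows (144991 and 155816 counts) and rows named by a number only (under 10 counts in either library) were left out of library sizes. Library ratios used expected counts rounded to whole numbers for TMM factors (edgeR 4.0.16) and a prior count of 0.5, tested on simulated data. DESeq2 1.42.0 size factors were an alternative. Intervals are 95% Clopper-Pearson intervals for counting error alone, as the reads carry no molecular identifiers and are not independent molecules. Python 3.11.15 and R 4.3.3 were used.

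Members and lists were chosen with earlier results of these data known. Named are the 10 highest by TPM, by count and by est_counts, the extremes of each class, the 5 with the largest library ratio each way at a mean of at least 10 counts, those next to the TPM limit, and fixed lists of processing snoRNAs, imprinted snoRNAs, scaRNAs, hosts and partner proteins. Host pairs and host transcripts were picked after their values were seen. Alternatives varied the limits, scaling, table and replicates.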

Additional observations from a re-analysis of the deposited data

How the results depend on the processing

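Of 64 alternatives over 12 results, 40 moved the value by less than a set limit and 24 moved it further. The limit was the spread between the libraries, a factor of 1.5 for counts, and for the library log2 ratio a width taken from the counting interval of the summed counts. Where a value is the mean of the 2 libraries, leaving out a replicate always moves it by less than their SD. Those alternatives could not have been called otherwise and say nothing on stability. For single values no sign was called. No paired analysis was possible because there is 1 group. With at least 10 counts in both libraries, members fell from 103 to 58, median TPM rose from 21.5 to 67.7, the H/ACA to C/D log2 ratio was −1.0, the log2 ratio of RNA to host changed sign from −0.71 to 1.82, the log2 ratio of the tables was −9.26 and 1 gene differed 2-fold. The est_counts table gave a TPM share of 0.0655% (main 0.891%), a count share of 0.00393%, a median TPM of 0, a partner protein median of 24.1 TPM (main 14.5) and, for Scarna2 alone, a library log2 ratio of −0.051. Its H/ACA to C/D and host ratios could not be computed, since the medians were 0. Leaving the types and the 7SL and 7SK genes out of the denominator gave a share of 1.40%. As CPM, not corrected for length, the median was 0.567 and the H/ACA to C/D log2 ratio −3.81. The log2 ratio of the tables was −4.31 with a pseudocount of 1 and −5.24 on counts. ERCC scaling gave a library log2 ratio of −0.37, with all genes at −0.18, and 41 of 43 lower. A mean CPM minimum of 0.1 gave −0.22 with 6 of 79 past 2-fold (all genes 5.69%). No minimum gave 9 of 103 (20.3% of genes with any count), and a 1.5-fold limit gave 1. The share of all genes was not computed for the 1.5-fold limit, for 10 counts in both libraries, or for genes lower under ERCC scaling. Those counts therefore have no background beside them. Chosen after seeing the data, rows at 1 locus summed gave a median TPM of 18.7 and leaving out U3 gave 15.3. Leaving out a replicate gave 124 to 131 members, median TPM 20.1 to 23.0, 1 to 2 members in the second table, and H/ACA to C/D log2 ratios of −2.57 to −1.53. Causes were not tested beyond the smaller sets that each alternative itself makes.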
